A study of Mus musculus with 24 samples.

Results

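The levels of 10 genes that limit or clear retroelement nucleic acids were followed, namely *Apobec3*, *Samhd1*, *Bst2*, *Mov10*, *Trex1*, *Zc3hav1*, *Adar*, *Rnaseh2a*, *Rnaseh2b* and *Rnaseh2c*. They were chosen by symbol, as 10 of the 47937 gene entries of the RNA sequencing count table, and all 10 were among the 18565 genes with enough counts to be tested. Repeat elements of the LTR class (658 elements) and of the LINE class (295 elements), counted in the same libraries, were read beside them. The RNA came from mouse embryonic fibroblasts (MEFs) in 8 conditions with 3 biological replicates each, built to remove step by step the 6 SET-domain enzymes that methylate histone H3 at lysine 9 (H3K9).

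WT cells were the *E1c* line, itself a clone picked for high Cre activity, which carries a conditional (floxed) *Eset1* allele and a tamoxifen-inducible Cre, and they were left without 4-hydroxytamoxifen (4-OHT). *E1* was the same line after 4-OHT, which makes Cre remove floxed exons of *Eset1*. *E2* was an *Eset2*-mutant clone of this line without 4-OHT, and *E1E2* the same clone with it. In the first series of clones, *E1 S1S2* lacked *Eset1*, *Suv39h1* and *Suv39h2*, and *6KO1* lacked these and *Eset2*, *G9a* and *Glp*. In the second series, *E1E2 G9Gl* lacked *Eset1*, *Eset2*, *G9a* and *Glp*, and *6KO2* lacked these and both *Suv39h* genes. All 4 compound lines were treated with 4-OHT, and genes other than *Eset1* had been disrupted with CRISPR/Cas9. In comparisons of a treated line with WT or *E2*, 4-OHT itself and the loss of *Eset1* cannot be told apart. The replicates of each of these disrupted lines came from 1 clone, so clone and genotype cannot be told apart. All lines, WT included, carry the conditional allele and an inducible Cre. After gene disruption, a further inducible Cre with a CAGGS promoter and a puromycin resistance gene was introduced and puromycin selection maintained, so the disrupted lines may differ from WT and *E1* in this construct and selection as well, which cannot be told apart from genotype. The treatment protocol in the labels names 4-OHT for all samples, and the titles, which mark WT and *E2* as controls, were followed.

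Retroelements copy themselves through RNA, and LTR elements (endogenous retroviruses) and LINEs both use reverse transcription. Cells hold them in check after transcription with restriction factors, which edit, bind, degrade or trap their RNA, DNA or particles. Several of these factors are also induced by interferon. TREX1, SAMHD1, ADAR and the RNase H2 complex keep the cell's own nucleic acids from setting off interferon production.

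Libraries held 24737307 to 37419816 counts. Values below are counts normalized with edgeR's TMM factors, which put all libraries on 1 scale. Conditions were compared in 1 edgeR quasi-likelihood fit of the 24 libraries, and two-sided p-values were adjusted by Benjamini-Hochberg across the 18565 genes. A gene is said to have changed, risen or fallen where the adjusted p was at most 0.01, and to be called where the fold change was also at least 2, a log2 fold change of 1. As a check of the labels, the targeted gene had lower RNA than WT at an adjusted p of at most 0.01 in 21 of 23 pairs of line and targeted gene. *Suv39h2* was higher in the libraries labelled *E1 S1S2* and did not pass in *6KO1*. *Setdb1* (*Eset1*) RNA differed by 0.007 on the log2 scale between *E2* and *E1E2* (adjusted p = 0.992, edgeR), so it does not tell these libraries apart, and conditions are named by their labels. Counts over a whole gene include exons that were not altered, so they check the labels only in part. Replicate libraries of a condition differed from each other by more than counting error, and WT replicate 2 stood apart most (chi-square per gene of 62.8 and 52.5 against the other WT libraries, 2.12 to 23.2 in all other pairs). *E2* replicate 2 was lower than the other *E2* libraries for several of the 10 genes. The summed counts of 8 fibroblast markers were 0.508 to 1.14 times WT, lowest in *6KO1* and highest in *E1E2 G9Gl*. This sum was carried by abundant genes such as *Vim* and *Col1a1*, and less abundant markers moved further. *Thy1*, with a mean of 199 counts in WT, had means of 0.861, 0.293 and 1.76 in *E1 S1S2*, *6KO1* and *6KO2*. Its means were 27 and 49.3 in *E2* and *E1E2*, 186 in *E1* and 412 in *E1E2 G9Gl*. *Dcn*, at 36.2 in WT, had means of 0.58 and 2.07 in *6KO1* and *E1E2 G9Gl*, and of 138 in *6KO2*. In bulk RNA, fewer expressing cells and less RNA per cell cannot be told apart.

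**Figure D1:**
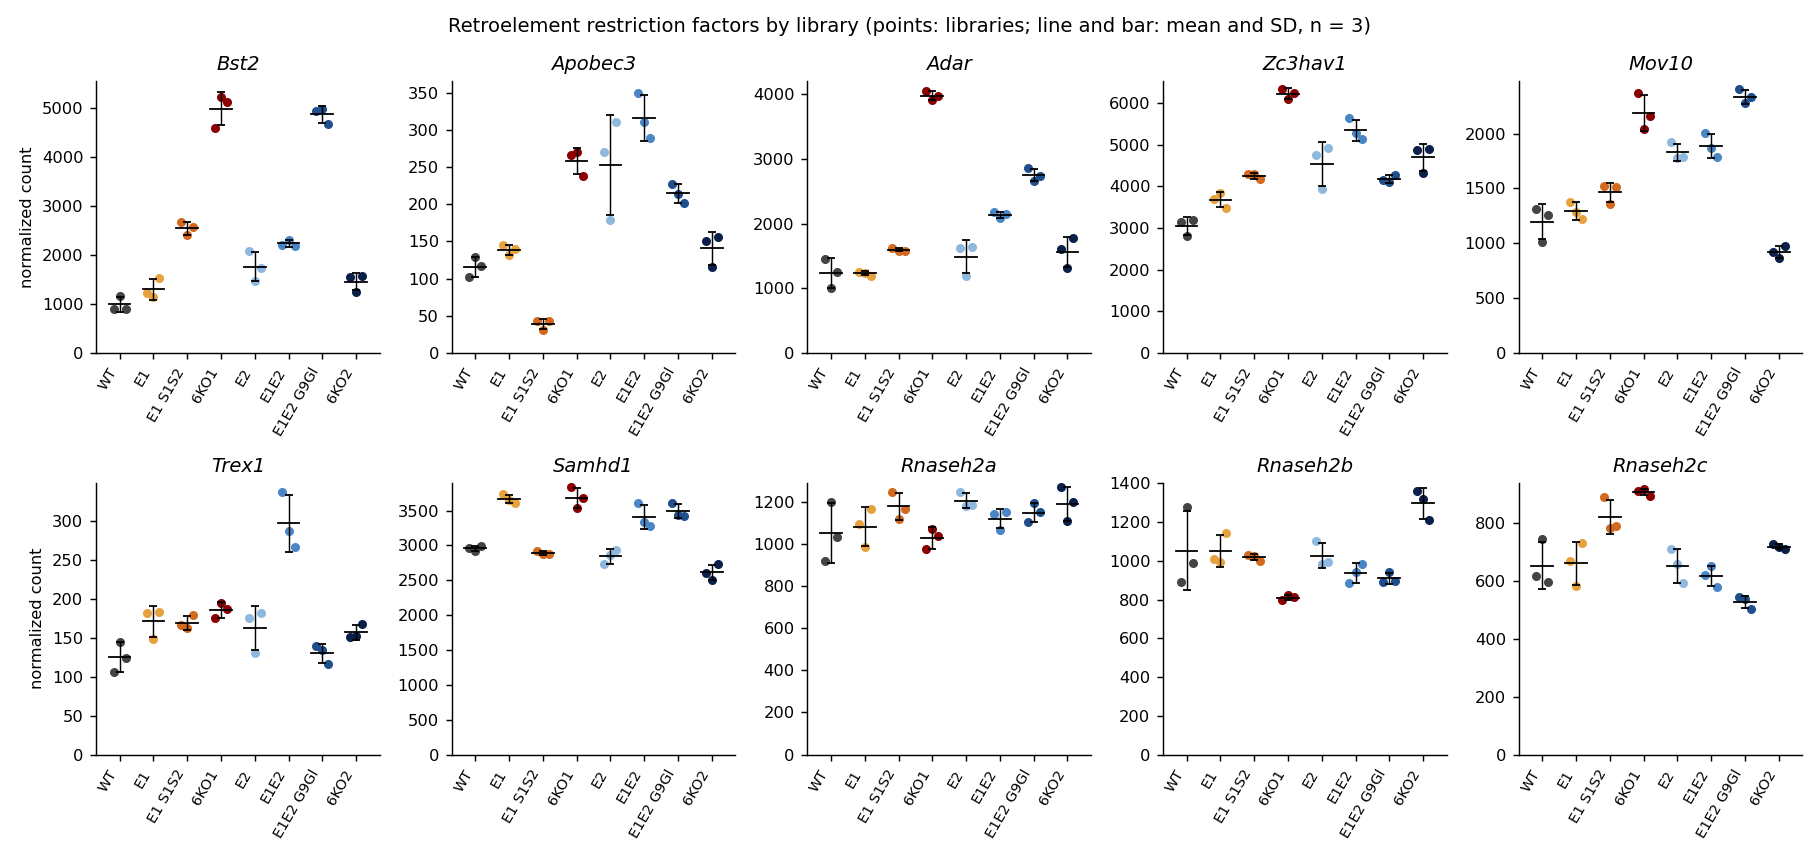
Normalized counts (vertical axes, starting at 0) of the 10 genes in each of the 24 libraries, by condition (horizontal axes). Points are libraries, and lines with bars are the mean and SD of 3 libraries. *Bst2* was highest in *6KO1* and *E1E2 G9Gl*, *Apobec3* was lowest in *E1 S1S2*, and *Rnaseh2a* stayed between 917 and 1270.1.

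*Bst2*, *Apobec3*, *Adar* and *Zc3hav1* were the genes called in *6KO1*, all higher, and *Bst2* and *Adar* those called in *E1E2 G9Gl*. *Trex1* was called in *E1E2* together with *Bst2* and *Apobec3*. *Apobec3* was the gene called lower in *E1 S1S2* and the gene called higher in *E2*. None of the 10 genes was called in *E1* (background 2.27% of all genes higher and 1.99% lower), where 4 were higher at an unadjusted p under 0.05 and DESeq2 called 0. In *E1 S1S2*, 1 was called higher and 1 lower, where 6.65% and 5.11% of all genes were. In *6KO1*, 4 were called higher and 0 lower, against 20.6% and 10.2% of all genes. In *E2*, 1 was called higher and 0 lower, against 2.9% and 3.21%. In *E1E2*, 3 were called higher and 0 lower, against 5.51% and 3.22%. *E1E2 G9Gl* had 2 called higher and 0 lower, against 16.8% and 8.41%. *6KO2* had 0 in either direction, against 15.3% and 5.39%. In *6KO2*, 6 were higher and 2 lower at an unadjusted p under 0.05, and DESeq2 called 0. The share of all genes at this unadjusted limit was not computed, so these counts in *E1* and *6KO2* have no background beside them. All 7 comparisons share the WT libraries. The median log2 fold change of the 10 genes was 0.72 in *6KO1* and 0.73 in *E1E2*, where that of all genes tested was 0.06 and -0.0024. In *E1* and *6KO2* the medians were 0.19 and 0.29, and in *E1 S1S2*, *E2* and *E1E2 G9Gl* 0.31, 0.31 and 0.35. Without WT replicate 2, the counts were the same except in *6KO1*, where 3 genes were called, because *Zc3hav1* lay at 0.97.

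Smaller changes were more frequent. With the adjusted p alone and no fold minimum, 8 of the 10 genes were higher and 1 lower in *6KO1*, where 35.9% and 30.3% of all genes were. *E1E2* had 7 higher and 0 lower (16.3% and 16.9% of all genes), and *E1 S1S2* 6 and 1 (19.9% and 21.9%). *E1E2 G9Gl* also had 6 and 1 (30.9% and 28.3%). *E2* had 4 and 0 (12.5% and 14.4%), *6KO2* 3 and 2 (29.5% and 25%), and *E1* 2 and 0 (6.72% and 6.6%).

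**Figure D2:**
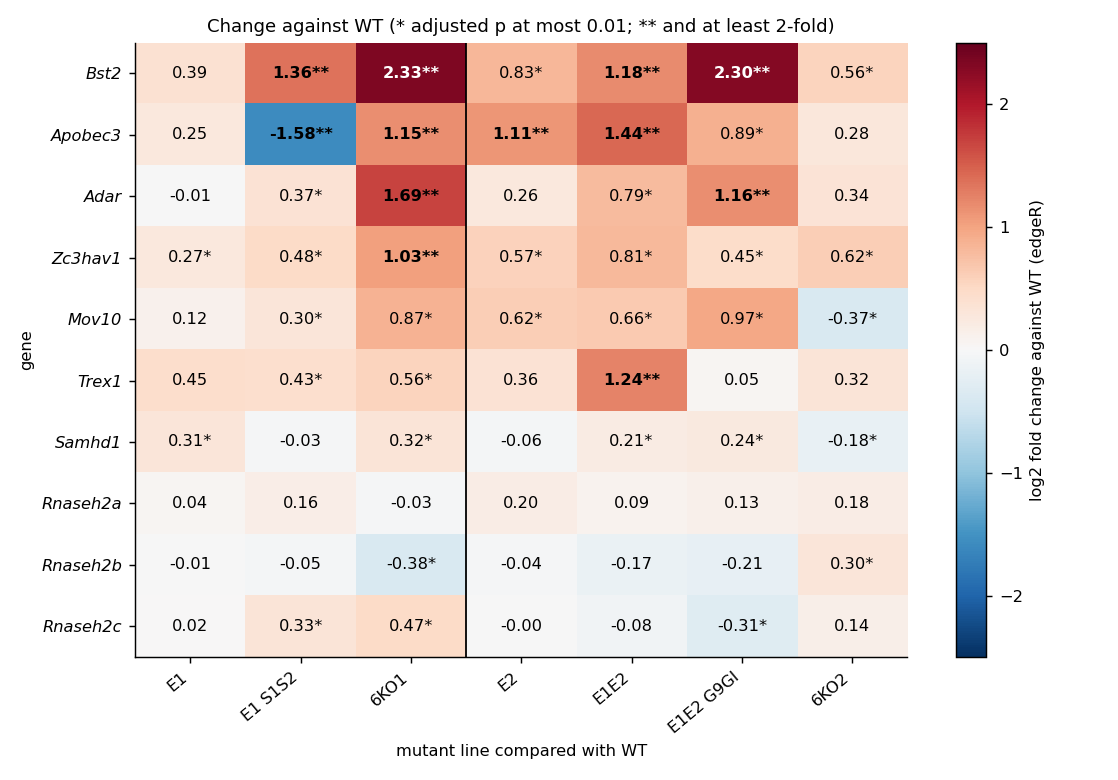
Log2 fold change against WT (colour and printed value, edgeR) of the 10 genes (rows) in the 7 mutant conditions (columns, first series to the left of the line). A single mark denotes an adjusted p of at most 0.01, and a double mark in bold a fold change of at least 2 as well. *Bst2* has the largest values, 2.33 in *6KO1* and 2.30 in *E1E2 G9Gl*.

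*Bst2* and *Apobec3* were called in the most comparisons with WT, *Bst2* always higher and *Apobec3* in both directions. Each has a promoter window that holds the core of the interferon-stimulated response element (ISRE). Any link between this core and the calls was not tested. The windows are RefSeq's (GRCm38.p6), from 250 bases before to 50 after an annotated start, and were found for 9 of the 10 genes, not for *Rnaseh2b*. The core searched was GAAANNGAAA on either strand. It was present in 2 of the 14 windows of these 9 genes and in 1131 of 32851 windows of all genes (3.443%). The sequences are shown because these are the members with an exact match, and near matches were not searched for. Letters are in lower case 5′ to 3′ on the strand of the gene, with the matching bases in capitals. The *Bst2* window is chr8:71537423-71537722 on the minus strand, and its 2 matches overlap by a tetramer.
Bst2: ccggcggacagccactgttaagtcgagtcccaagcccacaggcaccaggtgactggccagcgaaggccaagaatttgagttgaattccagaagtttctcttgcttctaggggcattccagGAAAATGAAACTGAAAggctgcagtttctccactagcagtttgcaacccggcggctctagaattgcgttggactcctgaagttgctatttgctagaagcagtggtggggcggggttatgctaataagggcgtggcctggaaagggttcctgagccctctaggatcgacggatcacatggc
The *Apobec3* window is chr15:79892158-79892457 on the plus strand, and its match is on the opposite strand, so it reads as the reverse complement.
Apobec3: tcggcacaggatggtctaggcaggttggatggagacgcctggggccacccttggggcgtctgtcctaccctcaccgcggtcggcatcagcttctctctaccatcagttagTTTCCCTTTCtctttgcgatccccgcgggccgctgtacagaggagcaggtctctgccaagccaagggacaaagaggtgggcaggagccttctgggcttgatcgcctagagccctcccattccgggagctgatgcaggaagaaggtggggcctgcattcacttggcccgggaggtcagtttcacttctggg
The second *Apobec3* window holds no match. The letters describe these windows and are not a measurement of factor binding.

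*Bst2* (ENSMUSG00000046718, chromosome 8 from 71534255 to 71537456 on the minus strand, GRCm38, protein-coding with 5 merged exons) encodes tetherin, a membrane protein that is induced by interferon and holds budding enveloped virus particles at the cell surface. It had 903, 1163 and 898 normalized counts in the 3 WT libraries and 1212, 1135 and 1534 in *E1*. In *E1 S1S2* it had 2663, 2399 and 2574, and in *6KO1* 4595, 5229 and 5122. The *E1* libraries overlapped with WT, and those of *E1 S1S2* and *6KO1* lay above all WT and *E1* libraries. In the second series, *E2* had 2070.0, 1467 and 1738 counts and *E1E2* 2206, 2309.6 and 2188. *E1E2 G9Gl* had 4939.5, 4985 and 4665, while *6KO2* had 1543, 1252 and 1574. The *6KO2* libraries lay above WT but below all libraries of *E1E2 G9Gl* and *6KO1*. The log2 fold change against WT was 2.33 (SE 0.123, adjusted p = 6.17e-14) in *6KO1*, a 5.04-fold rise, and 2.30 (SE 0.123, adjusted p = 8.4e-14) in *E1E2 G9Gl* (edgeR). *Bst2* was also called in *E1 S1S2* at 1.36 and in *E1E2* at 1.18, and it rose by less than 2-fold in *E2* (0.83) and *6KO2* (0.56). Its value in *E1* was 0.39 (adjusted p = 0.0236, edgeR). In order of mean level, *6KO1* and *E1E2 G9Gl* overlapped at the top, followed without overlap by *E1 S1S2* and then *E1E2*, while *E2*, *6KO2*, *E1* and WT each overlapped the next. As a level per length, *Bst2* was the most abundant of the 10 in WT at 43.2 ± 6.64 CPM per kb of merged exon (SD, n = 3), where CPM scales each library to the same total, followed by *Zc3hav1* at 18.5 ± 1.32 and *Rnaseh2c* at 15 ± 1.86.

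*Apobec3* (ENSMUSG00000009585, chromosome 15 from 79891659 to 79915906 on the plus strand) encodes a cytidine deaminase that acts on reverse-transcribed viral DNA. It was the lowest of the 10 in WT at 0.484 ± 0.0553 CPM per kb, with 102, 129 and 116 normalized counts. *E1* had 145, 131 and 139.8, and the libraries labelled *E1 S1S2* had 43.1, 30.8 and 42.3. All *E1 S1S2* libraries lay below those of every other condition. *6KO1*, which adds 3 disruptions to those of *E1 S1S2*, had 266, 271 and 238 counts. *E2* had 270.0, 178 and 310.1 and *E1E2* 349.7, 310.0 and 288, all above WT. *E1E2 G9Gl* had 228, 214 and 202 and *6KO2* 151, 115 and 156, so the *6KO2* libraries overlapped with WT and *E1E2 G9Gl* did not. In *E1 S1S2*, *Apobec3* fell against WT, at -1.58 (SE 0.192, adjusted p = 3.34e-07) on the log2 scale (edgeR). It was called higher in *E1E2* at 1.44 (SE 0.156, adjusted p = 9.09e-08), in *6KO1* at 1.15 and in *E2* at 1.11 (edgeR). In *E1E2 G9Gl* it rose by 0.89, and its values in *E1* and *6KO2* were 0.25 and 0.28. The call in *E2* was lost without *E2* replicate 3, at 0.94. *Apobec3* was therefore the one member that was called in both directions against WT. Of its 9454 exonic bases, 100 lie opposite *Cbx7*, which had a mean of 8.24 counts in WT, 91.6 in *E1E2* and 159 in *E1E2 G9Gl*. A further 676 lie in a gene on the same strand that was not analysed here. The part of these overlaps in the *Apobec3* counts was not tested.

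*Adar* (ENSMUSG00000027951, chromosome 3 from 89715022 to 89753446 on the plus strand) encodes the enzyme that edits adenosine to inosine in double-stranded RNA. WT libraries had 1451, 1002 and 1252 normalized counts, and *E1* libraries had 1254, 1239.8 and 1194. *E1 S1S2* had 1619.6, 1582 and 1581 and *6KO1* 4052, 3912 and 3973. The *6KO1* libraries lay above all others, and the *E1* libraries within the range of WT. *E2* had 1620.3, 1193 and 1643 counts and *E1E2* 2183, 2079 and 2141. *E1E2 G9Gl* had 2855, 2659 and 2743 and *6KO2* 1609, 1315 and 1773. Those of *E2* and *6KO2* overlapped with WT, while *E1E2* and *E1E2 G9Gl* lay above it. *Adar* was called in *6KO1* at 1.69 (SE 0.114, adjusted p = 5.35e-12) and in *E1E2 G9Gl* at 1.16 (SE 0.113, adjusted p = 4.14e-09) (edgeR). It rose by 0.79 in *E1E2* and by 0.37 in *E1 S1S2*, and had values of 0.26, 0.34 and -0.01 in *E2*, *6KO2* and *E1*. *Adar* shares 1365 of 8118 exonic bases with *Chrnb2* on the opposite strand. *Chrnb2* had a mean of 2.56 counts in WT and 32.2 in *6KO1*, whereas *Adar* had a mean of 1235 and 3979.

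*Zc3hav1* (ENSMUSG00000029826, chromosome 6 from 38305286 to 38354603 on the minus strand) encodes the zinc finger antiviral protein ZAP, which binds CpG-rich viral RNA and promotes its degradation. Its WT libraries had 3148, 2799 and 3199.5 normalized counts. *E1* had 3703, 3847 and 3481, and *E1 S1S2* 4287, 4295 and 4171. *6KO1* had 6340.1, 6089 and 6241, its highest level and without overlap with any other line. In the second series, *E2* had 4759, 3932 and 4931 and *E1E2* 5633, 5269 and 5130.1. *E1E2 G9Gl* had 4148, 4107 and 4279 and *6KO2* 4878, 4326 and 4887. All libraries of all 7 mutant conditions lay above all WT libraries, the lowest being 3481 in *E1*. *Zc3hav1* was the only one of the 10 genes that changed in all 7 comparisons, with log2 fold changes from 0.27 in *E1* to 1.03 (SE 0.0721, adjusted p = 1.1e-11) in *6KO1* (edgeR). The call in *6KO1* is at the fold limit. It was lost at 0.97 without WT replicate 2, and at 0.995 to 0.999 with no filter on low counts, with only genes of mean count above 100 and with factors from genes and repeats together. In between were *E1E2 G9Gl* at 0.45, *E1 S1S2* at 0.48, *E2* at 0.57, *6KO2* at 0.62 and *E1E2* at 0.81.

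*Mov10* (ENSMUSG00000002227, chromosome 3 from 104794836 to 104818563 on the minus strand) encodes an RNA helicase that limits retrotransposition. WT libraries had 1311, 1013 and 1261 normalized counts. *E1* libraries had 1375, 1288 and 1219 and overlapped with WT, and those of *E1 S1S2* had 1522, 1362 and 1509. *E2* and *E1E2*, which overlapped with each other, had 1922, 1779 and 1787 and 2005, 1867 and 1791. *E1E2 G9Gl* had 2403, 2278 and 2330.1 and *6KO1* 2370.4, 2039 and 2157. Both lay above all WT libraries and overlapped with each other. *6KO2* had 924, 865 and 976, all below WT. *Mov10* rose by less than 2-fold in 5 lines, by 0.97 (SE 0.0813, adjusted p = 2.97e-10) in *E1E2 G9Gl*, 0.87 in *6KO1*, 0.66 in *E1E2*, 0.62 in *E2* and 0.30 in *E1 S1S2* (edgeR). It fell in *6KO2*, at -0.37 (SE 0.0829, adjusted p = 0.000444) (edgeR), and its value in *E1* was 0.12. It was called in *E1E2 G9Gl* with DESeq2 or RLE factors at 1.00, and without WT replicate 1 or 3 at 1.04 and 1.01.

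*Trex1* (ENSMUSG00000049734, chromosome 9 from 109057933 to 109059734 on the minus strand) encodes the major DNA exonuclease of the cytosol. WT libraries had 107, 145 and 124 normalized counts and *E1E2* libraries 338, 288 and 267, with no overlap. The *E2* libraries, which lack 4-OHT, had 176, 131 and 182, and those of *E1E2 G9Gl* 140.2, 134 and 117. Both overlapped with WT. *E1* had 182, 148 and 184, *E1 S1S2* 167, 162 and 179, *6KO1* 175, 195 and 188 and *6KO2* 151, 152 and 168, each above WT and below *E1E2*. Against WT, *Trex1* was called only in *E1E2*, at 1.24 (SE 0.129, adjusted p = 5.17e-08) (edgeR). It rose by 0.56 in *6KO1* and 0.43 in *E1 S1S2*, and had values of 0.45, 0.36, 0.32 and 0.05 in *E1*, *E2*, *6KO2* and *E1E2 G9Gl*. All 1147 exonic bases of *Trex1* are also exonic in *Atrip* on the same strand, so its count is uncertain. *Atrip*, with a mean of 425 counts in WT, had a log2 fold change of 0.04 in *E1E2* (adjusted p = 0.637, edgeR) and of -0.52 in *E1E2 G9Gl*.

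*Samhd1* (ENSMUSG00000027639, chromosome 2 from 157097533 to 157135265 on the minus strand), which encodes an enzyme that depletes the nucleotides needed for reverse transcription, was called in no line. Its libraries ranged from 2509 in *6KO2* to 3833 in *6KO1*, around 2960.2, 2922 and 2987 in WT. It rose by less than 2-fold in *E1*, *6KO1*, *E1E2* and *E1E2 G9Gl*, by 0.21 to 0.32, and fell in *6KO2*, at -0.18 (SE 0.0492, adjusted p = 0.00319) (edgeR). The *6KO2* libraries had 2509 to 2732 counts, all below WT. In *E2* and *E1 S1S2* its values were -0.06 and -0.03.

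The 3 subunits of RNase H2, which removes RNA from DNA hybrids and misplaced ribonucleotides from the genome, were not called in any line. *Rnaseh2a* (ENSMUSG00000052926, chromosome 8 from 84956610 to 84969767 on the minus strand), the catalytic subunit, did not change in any of the 7 comparisons, with log2 fold changes from -0.03 to 0.20. *Rnaseh2b* (ENSMUSG00000021932, chromosome 14 from 62292589 to 62372992 on the plus strand) fell in *6KO1*, at -0.38 (SE 0.0913, adjusted p = 0.000732), and rose in *6KO2*, at 0.30 (SE 0.0904, adjusted p = 0.00628) (edgeR). *Rnaseh2b* had 798, 823 and 812 normalized counts in *6KO1*, below the WT libraries at 891, 1279 and 991. The 3 libraries of *6KO2* had 1361, 1319 and 1209.5 and overlapped with WT. *Rnaseh2c* (ENSMUSG00000024925, chromosome 19 from 5601873 to 5607019 on the plus strand) rose in *6KO1* and *E1 S1S2*, by 0.47 and 0.33, and fell in *E1E2 G9Gl*, at -0.31. In *6KO1*, then, the accessory subunits moved in opposite directions while the catalytic one had 974 to 1073 counts against 917 to 1201 in WT. Parts of *Rnaseh2c* (426 of 1715 exonic bases, opposite *Kat5*) and of *Rnaseh2a* (177 of 3509, opposite *Prdx2*) overlap other genes. *Rnaseh2a* also shares 339 exonic bases with *Gm49661* on the same strand, a gene that was not analysed here. For the opposite strand, the strand setting of the counting is not given in the sources used here. *Kat5* also rose in *6KO1* and *E1 S1S2*, by 0.35 and 0.27 on the log2 scale, and was at 0.04 in *E1E2 G9Gl*. Its part in the *Rnaseh2c* counts was not tested.

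The lines were built stepwise, so the conditions before and after a step were compared directly. Adding the *Suv39h* disruptions to *E1* left 0 genes called higher and 1 lower (background 4.31% and 3.75%). *Apobec3* fell, at -1.83 (SE 0.188, adjusted p = 3.58e-08) on the log2 scale, and *Bst2* rose by 0.98, just inside the limit (edgeR). *Bst2* passed it without *E1* replicate 3 (1.12) or *E1 S1S2* replicate 2 (1.02). From *E1 S1S2* to *6KO1*, which adds *Eset2*, *G9a* and *Glp*, 2 genes were called higher and 0 lower (background 16.3% and 5.02%). *Apobec3* rose by 2.73 (SE 0.178, adjusted p = 5.83e-12) and *Adar* by 1.32 (SE 0.112, adjusted p = 5.61e-10) (edgeR). *Bst2* rose by 0.97, *Mov10* by 0.58 and *Zc3hav1* by 0.55, all less than 2-fold. *Apobec3* thus moved in opposite directions at the 2 steps of the first series, which share the *E1 S1S2* libraries.

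In the second series, 4-OHT added to the *Eset2*-mutant clone left 0 of the 10 genes called (background 2.32% and 0.657%), with 6 higher at an unadjusted p under 0.05 and 0 called by DESeq2. *Trex1* rose by 0.88, *Adar* by 0.53 and *Samhd1* by 0.26. The difference between this effect of 4-OHT and that in the parent line was tested as an interaction. It was called for 0 of the 10 (background 2.01% and 1.41%), also by DESeq2, with 2 higher at an unadjusted p under 0.05. For *E1E2* against *E2* and for the interaction, the share of all genes at the unadjusted limit was not computed. The largest interaction value was that of *Adar*, 0.53 (SE 0.16, adjusted p = 0.0258, edgeR). Between *E1* and *E1E2*, both with 4-OHT, *Apobec3* was called higher at 1.19 (SE 0.153, adjusted p = 1.91e-06) (edgeR), as 1 of the 10 (background 3.69% and 2.1%).

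Adding *G9a* and *Glp* to *E1E2* left 1 gene called higher and 1 lower (background 14.8% and 6.78%). *Bst2* rose by 1.12 (SE 0.117, adjusted p = 1.57e-08) and *Trex1* fell, at -1.19 (SE 0.131, adjusted p = 3.94e-08) (edgeR). At this step *Atrip* was at -0.56 (adjusted p = 6.39e-08, edgeR). *Adar* and *Mov10* rose by 0.37 and 0.31, and *Apobec3* and *Zc3hav1* fell, at -0.56 and -0.36. From *E1E2 G9Gl* to *6KO2*, which adds both *Suv39h* disruptions, 0 were called higher and 2 lower (background 7.19% and 9.12%). *Bst2* changed by -1.74 (SE 0.12, adjusted p = 2.49e-11) and *Mov10* by -1.34 (SE 0.0827, adjusted p = 3.4e-12) (edgeR). *Adar*, *Apobec3* and *Samhd1* fell by less than 2-fold at this step, at -0.81, -0.61 and -0.42, and *Rnaseh2b* and *Rnaseh2c* rose by 0.51 and 0.44.

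The 2 lines with all 6 targets were compared with each other. In *6KO1* against *6KO2*, 3 genes were called higher and 0 lower (background 9.77% and 7.1%). These were *Bst2* at 1.77 (SE 0.12, adjusted p = 1.6e-11), *Adar* at 1.35 (SE 0.112, adjusted p = 6.15e-10) and *Mov10* at 1.25 (SE 0.0823, adjusted p = 1.04e-11) (edgeR). *Apobec3*, *Samhd1*, *Zc3hav1* and *Rnaseh2c* were also higher in *6KO1*, at 0.87, 0.49, 0.41 and 0.34, and *Rnaseh2b* was lower at -0.68. Of the 10 genes, 8 therefore differed between lines that carry the same targeted genes, 7 of them higher in *6KO1*. By the same adjusted p with no fold minimum, 25% of all genes were higher in *6KO1* and 24.2% lower.

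Steps with more small changes in either direction were found with no fold minimum. *E1 S1S2* against *E1* had 3 and 2 (16.1% and 17.3% of all genes), and *6KO1* against *E1 S1S2* 6 and 1 (30.4% and 22.9%). In the second series, *E1E2* had 3 and 0 against *E2* (6.58% and 5.36%) and 6 and 0 against *E1* (11.5% and 10.8%). *E1E2 G9Gl* against *E1E2* had 3 and 3 (28.7% and 24.7%), and *6KO2* against *E1E2 G9Gl* 2 and 5 (21.3% and 22.3%). Between the *6KO* lines, 7 were higher in *6KO1* and 1 lower (25% and 24.2%).

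**Figure D3:**
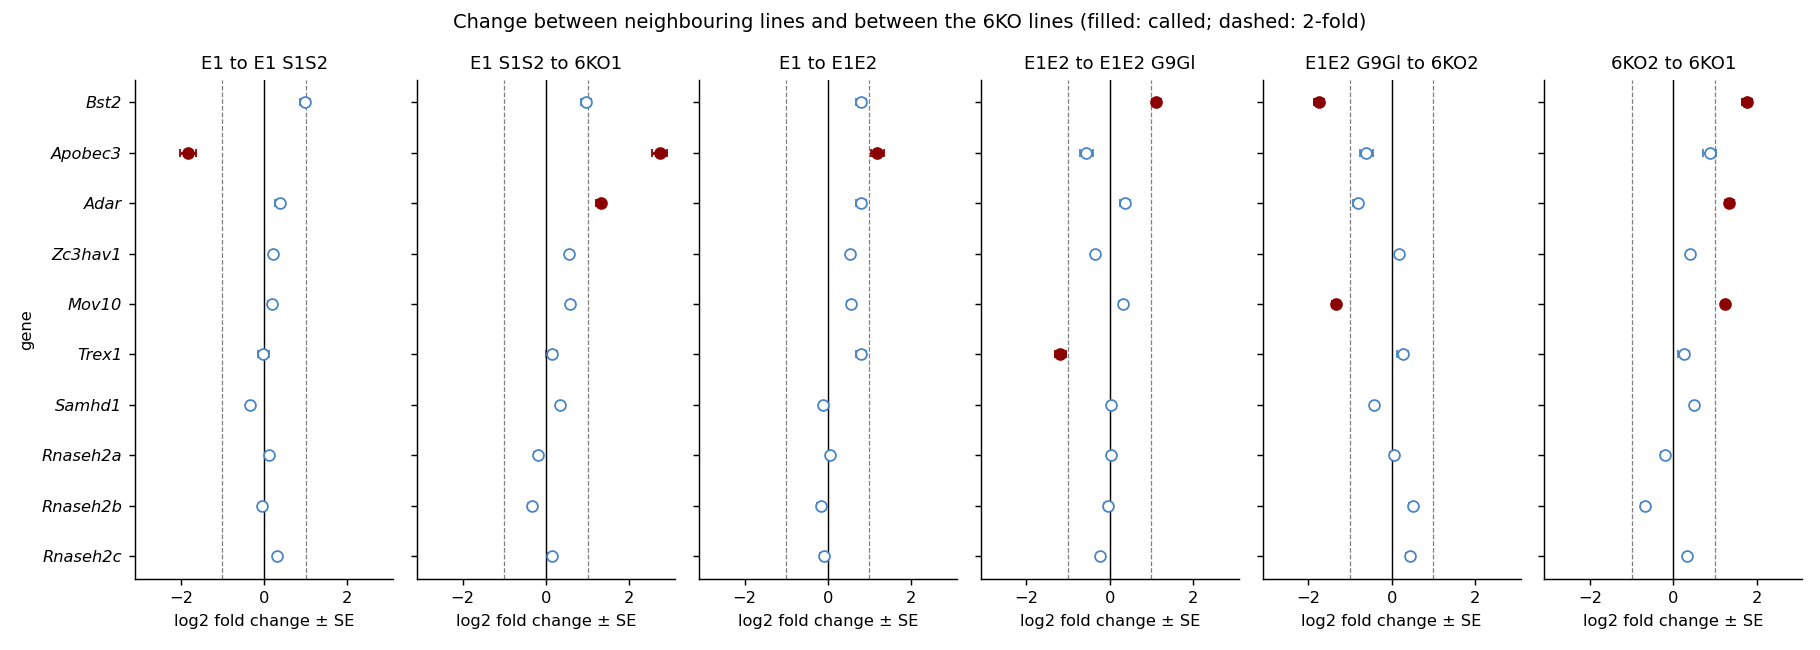
Log2 fold change with its standard error (horizontal axes) of the 10 genes (rows) at each step, and between the *6KO* lines. Filled points are called, and dashed lines mark a 2-fold change. *Apobec3* moved by -1.83 and then 2.73 along the first series, and *Bst2* by 1.12 and then -1.74 at the last 2 steps of the second.

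The retroelement RNA in the same libraries was read beside these levels. The LTR class total was 409847, 296291 and 393883 normalized counts in WT. Relative to the WT mean it was highest in *E1E2 G9Gl* (6.31 times) and *6KO1* (6.05 times), with *6KO2* at 4.54 and *E1* at 3.67. *E1 S1S2*, *E2* and *E1E2* had ratios of 2.94, 2.57 and 2.44. All mutant libraries lay above all WT libraries in each line, with an exact permutation p of 0.1 (two-sided), the smallest that 3 against 3 libraries allow. With factors computed from the repeats alone, the ratios of *6KO1*, *E1E2 G9Gl* and *6KO2* were 3.96, 3.53 and 3.62. For the LINE class total the ratios of these 3 lines were 2.02, 2.65 and 1.6 (p = 0.1 each, exact permutation), and 1.32, 1.49 and 1.28 times with factors from the repeats alone. It was 1.07 to 1.16 times WT in the other 4 lines, where the libraries overlapped with WT.

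Members called higher were set beside the LTR totals and the share of all genes called higher. With factors from genes, the 2 lines with the most LTR RNA, *E1E2 G9Gl* and *6KO1*, had 2 and 4 of the 10 genes called. Of all genes, 16.8% and 20.6% were, so the count in *E1E2 G9Gl* was near its background. With factors from the repeats alone, the LTR ratio of *6KO2* was above that of *E1E2 G9Gl*. *6KO2*, with the LTR total at 4.54 times WT, had 0 (background 15.3%). *E1*, at 3.67 times, also had 0, near its background of 2.27%, and *E1E2*, at 2.44 times, had 3 (background 5.51%). The murine leukemia virus element MuLV-int, one of the 2 LTR elements with the most counts, was 104 times WT in *E1* and 74.5 times in *6KO2*, its highest levels, and 13.5 to 34 times in the other 5 mutant lines. *Apobec3* in *E1* and *6KO2* had values of 0.25 and 0.28, which did not pass the test. The other element, MMVL30-int, was 62 times WT in *E1 S1S2*, where *Apobec3* was called lower. It was also 51.5 times WT in *6KO1*, 50.6 in *E2* and 46.9 in *E1E2*, where *Apobec3* was called higher, and 1 *E2* library (301002 counts) lay within the range of *E1 S1S2* (294215 to 306612). The lowest ratio was that of *E1E2 G9Gl*, 23.4. The ERV1 family total was 30.3 times WT in *E1E2 G9Gl* and the ERVK family total 10.3 times in *6KO1*, the highest of each. *Bst2* and *Adar* had their 2 highest means in these lines, but the ERV1 total was also 22.3 times WT in *E1*, a higher ratio than in *6KO1*, and neither gene passed the test in *E1*. *Mov10* was at its highest in *E1E2 G9Gl*, where the LINE total was highest, and below WT in *6KO2*, where the LINE total was 1.6 times WT. The L1 family made up nearly all of the LINE total and was 2.68, 2.04 and 1.61 times WT in *E1E2 G9Gl*, *6KO1* and *6KO2*. The LINE elements with the most counts, Lx9 and Lx8, were 2.05 and 2.21 times WT in *E1E2 G9Gl*. Any link between the repeats and the 10 genes was not tested, and clone and genotype cannot be told apart.

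**Figure D4:**
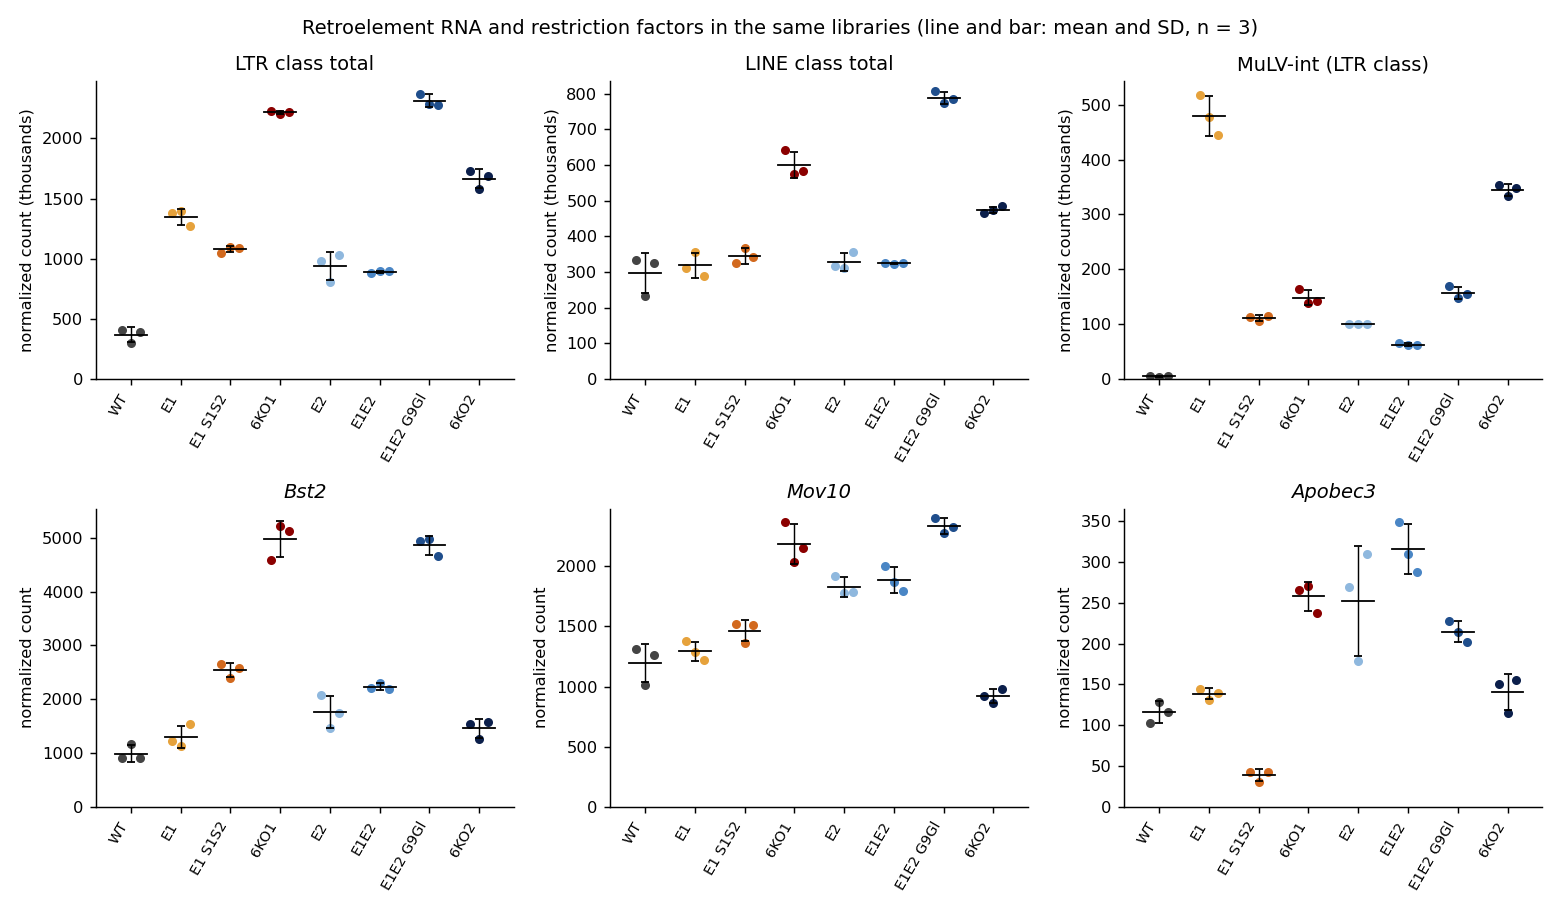
Normalized counts (vertical axes, starting at 0) of the LTR and LINE class totals and MuLV-int (upper row) and of *Bst2*, *Mov10* and *Apobec3* (lower row) in the 24 libraries by condition. Lines and bars are the mean and SD of 3 libraries. MuLV-int is highest in *E1* and *6KO2*, where *Apobec3* did not pass the test. *Bst2* rose by less than 2-fold in *6KO2* (log2 fold change 0.56) and did not pass in *E1*. *Mov10* lies below WT in *6KO2*.

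Other genes of the same processes were read from lists. Of 28 other restriction and nucleic acid clearance genes, 23 were tested. In *6KO1*, 12 were called higher and 1 lower (background 20.6% and 10.2% of all genes), and in *E1E2 G9Gl* 8 and 1 (16.8% and 8.41%). *E1E2* had 8 called higher (background 5.51%), *6KO2* 7 (15.3%), *E1 S1S2* 7 (6.65%) and *E2* 6 (2.9%), with 0 lower. *E1* had 1 higher and 1 lower (background 2.27% and 1.99%). Their median log2 fold change in *6KO1* was 1.25. The genes named by the rule were *Trim30a*, *Tex19.1*, *Mx2* and *Trim12c*. *Trim30a*, a TRIM gene of the cluster that includes *Trim12c*, had 4.32 ± 2.2 normalized counts in WT (SD, n = 3), and 4486 ± 197 in *6KO1*. It had 3564 ± 54 in *E1E2 G9Gl* and 231 ± 67.3 in *6KO2*. *Mx2*, an interferon-induced GTPase, had 11.2 ± 0.419 in WT, 575 ± 29.2 in *6KO1* and 112 ± 49.2 in *6KO2*. *Tex19.1*, which protects germ cells from retrotransposition, had 2.25 ± 2.05 in WT, 854 ± 25.3 in *E1E2 G9Gl* and 447 ± 9.27 in *6KO1*. *Trim12c* had 25.1 ± 9.03 in WT and 759 ± 14.2 in *6KO1*. The TRIM genes of this cluster are close copies of each other, so their counts are uncertain. Log2 fold changes in *6KO1* were 9.99, 7.52, 5.66 and 4.90 for *Trim30a*, *Tex19.1*, *Mx2* and *Trim12c*, and *Trim30a* and *Tex19.1* had 13 and 7 raw counts over the 3 WT libraries, so the size of their change is imprecise.

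All of the 25 interferon-induced genes listed were tested. In *6KO1* 24 were called higher (background 20.6% of all genes), in *E1E2* 24 (5.51%) and in *E1 S1S2* 23 (6.65%). *E1E2 G9Gl* had 22 (background 16.8%), *6KO2* 21 (15.3%), *E2* 8 (2.9%) and *E1* 7 (2.27%), with 0 lower in any line. Their median log2 fold change was 3.92 in *6KO1* and 2.01 in *6KO2*, where that of the 10 restriction factors was 0.72 and 0.29. *Irf7*, a transcription factor of the interferon response, had 17.6 ± 1.44 normalized counts in WT, 2357 ± 30.6 in *6KO1* and 269 ± 89.4 in *6KO2*. *Usp18*, which dampens interferon signalling, had 4.48 ± 2.62 in WT, 1731 ± 132 in *6KO1* and 203 ± 120.1 in *6KO2*. *Oas2* and *Oas1a*, which make the activator of RNase L, had 1.37 ± 1.65 and 5.63 ± 0.7 in WT and 1014 ± 35.6 and 1594 ± 113 in *6KO1*. In *6KO2*, where 15.3% of all genes were called higher, 21 of 25 interferon-induced genes and 0 of the 10 restriction factors were, and the difference between these shares was not tested. *Ifnb1*, the interferon beta gene, had 15 raw counts over the 3 libraries of *6KO1*, 7 in *E1E2* and in *6KO2*, 4 in *E1E2 G9Gl* and 0 in WT, *E1*, *E1 S1S2* and *E2*. *Ifna4* had 2 raw counts in all libraries together and *Ifnl3* 0.

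Genes with the most similar pattern to the members called most often were found by Pearson correlation of log2 CPM over the 24 libraries. The libraries share conditions and clones, so the values are a description. For *Bst2* they were *H2-T23* (r = 0.968), *Apol9a* (0.954) and *Apol9b* (0.953). For *Adar* they were *Irf9* (0.963), *Tap1* (0.95) and *Marf1* (0.948). For *Apobec3* they were *Repin1* (0.933), *Sigirr* (0.912) and *Alkbh3* (0.898).

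Markers of other cell types differed between the lines. The sum of 8 white blood cell markers was 5.71 times WT in *6KO1* and 7.77 times in *E1E2 G9Gl*, the lines with the most *Bst2*, and 1.53 times in *6KO2*. It came to 92.2 to 109 normalized counts in WT, 545 to 622 in *6KO1*, 760 to 813 in *E1E2 G9Gl* and 53.8 to 181 in the other 5 mutant lines. In *6KO1* most of it was *Cd68* and in *E1E2 G9Gl* *Itgam*, where *Itgam* and *Lyz2* had means of 507 and 152 counts. The general leukocyte marker *Ptprc* was at 0 in WT and had means of 47.7, 18.7 and 15.7 in *E1E2 G9Gl*, *6KO2* and *6KO1*. In *6KO2*, where *Bst2* rose by 0.56 on the log2 scale, *Itgam* and *Lyz2* had means of 21.3 and 18.3 counts, against 0 in WT. The macrophage marker *Adgre1* was at 0 in every library, and *Tyrobp* and *Laptm5* stayed at or below 1.76. The sum of 6 epithelial markers was above WT in every mutant line. It was 17.3 times WT in *6KO1*, 15.3 in *6KO2* and 8.02 in *E1E2 G9Gl*. *E1 S1S2* and *E2* were at 7.29 and 6.33 times, and *E1E2* and *E1* at 3.92 and 3.82. In *6KO1* and *6KO2* it came mostly from *Krt8* and *Krt14*, while *Epcam* was below WT, with means of 1.46 and 1.87. The sum of 4 endothelial markers was 9.03 times WT in *6KO2*, 8.16 in *6KO1*, 5.69 in *E1E2 G9Gl* and 0.765 to 2.69 in the other 4 mutant lines. Their part in the levels of the 10 genes was not tested.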

How the data were processed

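RNA sequencing of 24 mouse libraries gave 1 table of counts per gene and per repeat element. The authors trimmed reads, aligned them to the mouse genome and counted genes and repeats together with TEtranscripts, which shares reads that align to several copies among them. The deposited values are raw counts with no normalization. The submitters' processing notes name cutadapt 1.8.1 and STAR 2.5.2b. The strand setting of the counting is not given in the sources used here. Each of the 24 count columns matched a sample by name, and groups came from the labels.

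Library totals were 24737307 to 37419816 counts, and 1 entry that names neither a gene nor a repeat, with at most 0.0027% of a library's counts, was left out. Of 47937 gene identifiers, 47224 had a symbol. Genes were filtered by edgeR's filterByExpr, leaving 18565, and TMM factors from these genes scaled genes and repeats. Tests were edgeR 4.0.16 quasi-likelihood fits (limma 3.58.1, R 4.3.3) of all 24 libraries with 1 term per condition, adjusted over all genes tested. Class totals were compared by exact permutation tests (scipy 1.17.1), two-sided. The self-test on simulated counts was run before the fit. Alternatives were RLE factors, no filter, a mean count above 100, factors from genes plus repeats, a block for the replicate number, only the 6 libraries compared, DESeq2 1.42.0, no fold minimum, other repeat sums and leaving out each library. Coordinates are GRCm38.

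The 10 genes, the gene lists and the tests were chosen with earlier results of these data known. All 10 genes were named. Of each list, the 4 genes with the largest absolute log2 fold change in 6KO1, among those called the same way in 6KO1 and 6KO2, were named. Similar patterns were sought for the 3 members called most often. Of the repeats, class and family totals and the 2 elements per class with the most counts were named. Libraries of 1 condition were biological replicates per the study's methods.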

Additional observations from a re-analysis of the deposited data

How the results depend on the processing

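Most values kept their direction and their side of the threshold. Under the alternatives other than leaving out 1 library, 1024 member fold changes kept both, 11 reversed, 3 lost the call and 2 gained it. The reversed values were all within 0.03 of 0 on the log2 scale. With only the 6 libraries compared, they were *Samhd1* in *E1 S1S2* vs WT (0.00715), *Rnaseh2b* in *E1* vs WT (0.00810) and *Adar* in *E1* vs WT (0.000226). *Adar* in *E1* vs WT also reversed with the replicate block (0.00435). *Trex1* in *E1 S1S2* vs *E1* reversed with factors from genes and repeats (0.000143). *Rnaseh2c* in *E2* vs WT reversed with RLE factors (0.00635), no filter (0.000321) and a mean count above 100 (0.000333). It also did so with factors from genes and repeats (0.00997), only 6 libraries (0.0268) and DESeq2 (0.00590). The cause was not tested.

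The replicate numbers were not used to pair libraries. Deviations of same-numbered libraries had a mean correlation of 0.00508 (-0.291 to 0.24 over 84 pairs), and 12 of 24 libraries correlated best with their own number. With the replicate block, 4 members were called in *6KO1* vs WT and 3 in *E1E2* vs WT, as without it, and no call changed. *Adar* in *E1* vs WT reversed its sign, at 0.00435 with the block and -0.00534 without it.

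With no fold minimum, members higher and lower were 2 and 0 in *E1*, 6 and 1 in *E1 S1S2*, 8 and 1 in *6KO1*, 4 and 0 in *E2*, 7 and 0 in *E1E2*, 3 and 2 in *6KO2* and 6 and 1 in *E1E2 G9Gl* against WT. They were 3 and 0 for *E1E2* vs *E2*, 6 and 0 for *E1E2* vs *E1*, 3 and 2 for *E1 S1S2* vs *E1*, 6 and 1 for *6KO1* vs *E1 S1S2*, 3 and 3 for *E1E2 G9Gl* vs *E1E2*, 2 and 5 for *6KO2* vs *E1E2 G9Gl* and 7 and 1 for *6KO1* vs *6KO2*. Other restriction genes were then 13 higher and 3 lower in *E1 S1S2* (19.9% and 21.9% of all genes) and 14 and 3 in *6KO1* (35.9% and 30.3%). They were 9 and 2 in *E2* (12.5% and 14.4%) and 12 and 1 in *E1E2* (16.3% and 16.9%). *6KO2* had 12 and 2 (29.5% and 25%) and *E1E2 G9Gl* 13 and 3 (30.9% and 28.3%). In *E1* they were 1 and 1 (6.72% and 6.6%), and DESeq2 called 2 higher there. Interferon-induced genes were 12 higher in *E1* (6.72% of all genes) and 15 in *E2* (12.5%).

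Without the largest element, the LTR total was 2.15, 1.92 and 1.84 times WT in *E1 S1S2*, *E2* and *E1E2*. With factors from repeats alone it was 3.96, 3.53 and 3.62 times in *6KO1*, *E1E2 G9Gl* and *6KO2*, and the LINE total was 1.32, 1.49, 1.28 and 0.994 times in *6KO1*, *E1E2 G9Gl*, *6KO2* and *E1E2*.

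Leaving out 1 library, members called higher ranged from 0 to 1 in *E2* vs WT (0 without *E2* replicate 3) and from 0 to 1 in *E1 S1S2* vs *E1*. The LINE total ranged from 0.970 to 1.14 times WT in *E1*, 0.997 to 1.17 in *E2* and 0.987 to 1.16 in *E1E2*, below 1 without WT replicate 2. Member fold changes that crossed 0 were *Trex1* in *E1E2 G9Gl* vs WT (-0.049 to 0.17) and *E1 S1S2* vs *E1* (-0.11 to 0.039), *Rnaseh2a* in *E1* (-0.046 to 0.15) and *6KO1* (-0.12 to 0.072) vs WT and *E1E2* vs *E1* (-0.014 to 0.11), *Rnaseh2b* in *E1* (-0.11 to 0.16), *E1 S1S2* (-0.15 to 0.12) and *E2* (-0.15 to 0.13) vs WT and *E1 S1S2* vs *E1* (-0.082 to 0.026), *Rnaseh2c* in *E1* (-0.062 to 0.13), *E2* (-0.065 to 0.10) and *E1E2* (-0.15 to 0.023) vs WT, and *Adar* in *E1* vs WT (-0.14 to 0.13). For the difference between the 4-OHT effects they were *Apobec3* (-0.13 to 0.25), *Mov10* (-0.14 to 0.036), *Zc3hav1* (-0.13 to 0.027) and *Bst2* (-0.18 to 0.10).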
